A study of Mus musculus with 2 samples.

Results

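Hematopoietic stem cells of the fetal liver express regulators such as Hlf and Mecom, and in this organ many of them divide. The cells described here were those that carried RNA of both regulators and of proliferation genes at once, called cycling core cells below. They were chosen by measured values. A cell had to hold at least 1 UMI (a molecular tag that marks 1 captured RNA molecule) of Hlf and of Mecom, at most 1 UMI of the erythroid regulator Klf1, at most 4 UMIs of the granulocyte gene Mpo, and at least 2 UMIs summed over Mki67, Top2a, Ccnb1 and Cdk1. Cells entered with 1000 or more genes seen and no more than 20% of UMIs from mitochondrial genes, and 491 of these 7875 met the rule, 254 in the WT library and 237 in the KO library. These 8 genes are therefore described without being counted as findings.

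Both libraries came from E14.5 fetal livers of CD1 mice, an outbred stock, and held sorted LSK cells (lineage-negative, SCA1-positive, cKIT-positive). The WT library pooled 2 embryos and the KO library 3 embryos that lacked IκBα, the NF-κB inhibitor encoded by Nfkbia, through a germline targeted knockout present in every cell of the embryo. LT-HSC stands in the titles of both samples but LSK in their cell type and in the sort, and they are described here as LSK. There was 1 library per genotype. No difference between genotypes could be set against a spread between replicates, and no p-value is given. The intervals are exact 95% intervals (Poisson for UMI sums, binomial for shares, conditional binomial for ratios) and cover counting error only. Genotype, pool, sex of the embryos and library preparation cannot be told apart. A gene is called higher or lower where the ratio passed 1.5-fold, a rule of size and not a test.

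As background, a stem cell regulator network of transcription factors (Meis1, Erg, Fli1, Gata2, Lmo2 and the Hoxa genes) keeps the stem cell state, and a set of surface and signalling proteins (cKIT, the protein C receptor encoded by Procr) reads the niche. A cell that enters the cycle first makes the replication machinery under E2F control, then the mitotic genes, whose promoters are known to be bound by the NF-Y and DREAM or MuvB complexes at CCAAT boxes and CHR elements. Adult stem cells are mostly quiescent, while the fetal liver is the organ in which the stem cell pool is known to expand. IκBα holds NF-κB dimers in the cytoplasm, and Nfkbia, Nfkb2 and Relb are themselves known NF-κB targets.

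The G2 and mitosis genes differed from the stem cell genes in how often a CHR element stood in front of them. The promoters of 2 mitotic genes of the rule that hold it and of 2 stem cell genes that do not are shown as examples. They cover 250 bases before and 50 bases after the start in the orientation of the gene, from RefSeq on GRCm38.p6, at chr10:69352863-69353162 for Cdk1 (minus strand), chr11:99024140-99024439 for Top2a (minus strand), chr11:19018920-19019219 for Meis1 (minus strand) and chr2:155750967-155751266 for Procr (plus strand). Capitals mark the CHR letters TTTGAA or TTCGAA and the CCAAT box, each on either strand, so that TTCAAA and ATTGG are marked too. The 2 motifs share no position in these windows.
Cdk1: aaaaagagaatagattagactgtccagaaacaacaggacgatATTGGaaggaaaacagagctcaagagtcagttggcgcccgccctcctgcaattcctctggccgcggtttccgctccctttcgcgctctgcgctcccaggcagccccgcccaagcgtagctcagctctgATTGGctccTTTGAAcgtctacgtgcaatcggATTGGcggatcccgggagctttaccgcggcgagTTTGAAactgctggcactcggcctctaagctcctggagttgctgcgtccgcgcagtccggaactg
Top2a: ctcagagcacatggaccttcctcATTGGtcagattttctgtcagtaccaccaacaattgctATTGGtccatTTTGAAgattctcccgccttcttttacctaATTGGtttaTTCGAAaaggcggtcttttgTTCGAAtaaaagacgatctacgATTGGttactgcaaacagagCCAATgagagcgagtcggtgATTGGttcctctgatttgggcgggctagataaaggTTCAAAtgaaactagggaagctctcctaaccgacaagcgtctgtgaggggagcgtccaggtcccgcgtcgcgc
Meis1: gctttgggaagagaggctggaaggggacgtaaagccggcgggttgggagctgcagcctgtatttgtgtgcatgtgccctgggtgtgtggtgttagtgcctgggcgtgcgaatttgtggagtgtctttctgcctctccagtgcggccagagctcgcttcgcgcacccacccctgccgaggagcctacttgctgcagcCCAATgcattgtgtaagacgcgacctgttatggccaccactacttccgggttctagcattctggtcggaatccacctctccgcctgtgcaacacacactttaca
Procr: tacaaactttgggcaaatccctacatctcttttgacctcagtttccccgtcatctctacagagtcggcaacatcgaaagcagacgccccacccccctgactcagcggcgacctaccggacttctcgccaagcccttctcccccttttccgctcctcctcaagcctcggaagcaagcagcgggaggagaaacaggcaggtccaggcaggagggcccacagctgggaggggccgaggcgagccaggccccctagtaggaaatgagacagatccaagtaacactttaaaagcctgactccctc
The Cdk1 window held 2 CHR matches and 3 CCAAT matches, and the Top2a window held 4 and 6. The Meis1 window held 1 CCAAT match and no CHR match, and the Procr window held neither. Single genes break the pattern: the window of Ccnb1, another gene of the rule, held no CHR match, and 1 of the 3 Erg windows held 1. Of 54 listed G2 and mitosis genes, 44 had a promoter in the RefSeq table, and 75% of these 44 held a CHR match, against 21.7% of all 27025 genes in the table. A CCAAT match stood in 75% of the 44, against 41.1% of all genes, and both motifs in 65.9%, against 8.61%. The replication genes held CCAAT (69.0% of 29 genes) but rarely CHR (17.2%). Of the 23 stem cell transcription factors with a promoter, 60.9% held CCAAT and 13% held CHR, and of the 23 surface and signalling genes 13% held each. A match describes the letters in the window and says nothing of binding in these cells.

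The targeted gene followed the labels. Nfkbia (ENSMUSG00000021025, chr12:55489410-55492647, minus strand, a protein-coding gene) had 123 UMIs in the WT cycling core cells, or 25.6 CPM (its UMIs scaled to the total of the group), and 0 UMIs in the KO cells. Set at the floor of 3 counts, this was at least 4.83 lower on the log2 scale. After thinning each cell to 8000 UMIs, 14.0% of 250 WT members and 0 of 223 KO members (upper exact limit 1.64%) held an Nfkbia UMI. In the cycling erythroid cells of each library it was 4.65% and 0.114%. These cells serve below as the background for free RNA of stem cell genes. Whether the WT erythroid cells expressed Nfkbia themselves was not tested, so their share is not read as free RNA.

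The files held 3840 WT and 4928 KO barcodes, with 109122324 and 100029143 UMIs in all. The median cell that passed the filter had 28065 UMIs in WT and 19560 in KO. Among cycling core cells the medians were 17949 and 12854 UMIs, a WT/KO ratio of 1.40, with median mitochondrial shares of 2.90% and 3.01%. The libraries shared 7 barcodes, of which none was a member. Doublets were called by Scrublet in 0 WT and 4 KO members and were kept. A male pattern of Y-linked and Xist UMIs was seen in 0 WT members and in 28 KO members (11.8%). The KO/WT counts below rested on libraries that differed in all of these, and the part of each in them was not tested, except where values without such cells are given.

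The label of stem cells in cycle was checked against markers. All members held Hlf and Mecom by construction. The sum of the 15 erythroid markers (Klf1 left out) was 3016 CPM in WT members and 3956 CPM in KO members, with medians over cells of 2630 and 2094 CPM, against 1411 and 1867 CPM in other cycling cells without Hlf and Mecom and 5672 and 7933 CPM in cycling erythroid cells. The 13 lymphoid markers summed to 60.9 and 57.7 CPM, with 4 and 3 of them at 0, and the 7 mast cell and basophil markers to 1.46 and 4.21 CPM, with 5 and 6 at 0. The 10 macrophage markers were absent from 218 of 254 WT and 187 of 237 KO members. The 12 neutrophil markers (Mpo left out) summed to 939 CPM in WT against 220 in KO, with medians over cells of 212 and 194 CPM against 55 and 64.9 CPM in the other cycling cells. Prtn3, a granule protease gene of early myeloid progenitors, was seen in 225 of 254 WT and 186 of 237 KO members. The 10 hepatocyte markers summed to 62.1 CPM in WT and to 819 in KO. A few cells carried much of these last sums. In 1 WT member 11.5% of UMIs were of neutrophil markers, in 1 KO member 6.70% were of hepatocyte markers, and in another KO member 20.5% were of erythroid markers. In all, 4 WT and 8 KO members held more than 1% of their UMIs in 1 such list, and KO/WT results that rest on them are given with and without them.

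The steps of the rule kept similar numbers of cells from libraries of unequal size. In WT, 1086 cells held Hlf, 466 of them also Mecom, 425 passed the Klf1 limit, 349 passed the Mpo limit and 254 passed the proliferation limit. The same steps in KO left 1074, 427, 362, 309 and 237 cells. The 349 and 309 cells before the last step are called core cells, 10.1% of filtered WT and 7.0% of filtered KO cells, a difference of -3.10 points (-4.38 to -1.83). This difference moved with depth. With the WT library thinned to the median depth of KO, 298 of 3458 WT cells were core cells, against 309 of 4417 in KO. The proliferation sum of the members had a median of 21 UMIs in WT and 16 in KO, with maxima of 83 and 108. Just inside the limit stood 19 WT and 19 KO members with a sum of 2, and just outside it 39 and 31 core cells with a sum of 1. All 4 proliferation genes were seen in 126 WT and 116 KO members. Exactly 1 UMI of both Hlf and Mecom was held by 20 WT and 45 KO members.

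Most core cells were in cycle by this rule. Cycling cells made up 72.8% (67.8 to 77.4) of core cells in WT and 76.7% (71.6 to 81.3) in KO, a difference of 3.92 percentage points (-2.96 to 10.7). With every cell thinned to 8000 UMIs before the rule, 63.3% of WT and 88.4% of KO core cells were in cycle, a difference of 25.1 points (16.9 to 32.9). Thinning leaves out cells under 8000 UMIs, which were 28 of the 41 KO and 4 of the 56 WT core cells without proliferation UMIs. With the WT library alone thinned to the median depth of KO, it was 6.57 points (-0.69 to 13.8), and with at least 2 UMIs of Hlf and of Mecom 11.4 points (0.59 to 21.1). Of all filtered cells they were 7.35% (6.50 to 8.27) in WT and 5.37% (4.72 to 6.07) in KO, a difference of -1.98 points (-3.10 to -0.88). That difference moved with depth too. At 8000 UMIs per cell the members were 4.34% and 4.30% of all cells, a difference of -0.035 points (-0.99 to 0.91).

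To see where in the cycle the members stood, the UMIs of 36 replication genes and of 50 G2 and mitosis genes outside the rule were counted in each member thinned to 8000 UMIs, which left out 4 WT and 14 KO members that were shallower. The median member held 39 replication and 59.5 G2 and mitosis UMIs in WT, and 35 and 68 in KO, whereas WT core cells without proliferation UMIs held a median of 13 G2 and mitosis UMIs. More G2 and mitosis than replication UMIs were held by 60.0% (53.6 to 66.1) of 250 WT and 65.0% (58.4 to 71.3) of 223 KO members. The rule itself selected cells on the 4 other genes of this list. At least 100 G2 and mitosis UMIs were held by 25.2% of WT and 26.5% of KO members. At most 20 UMIs of each list were held by 9 WT and 6 KO members, so a cell picked up by the rule with almost no cycle RNA was rare.

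**Figure D1:**
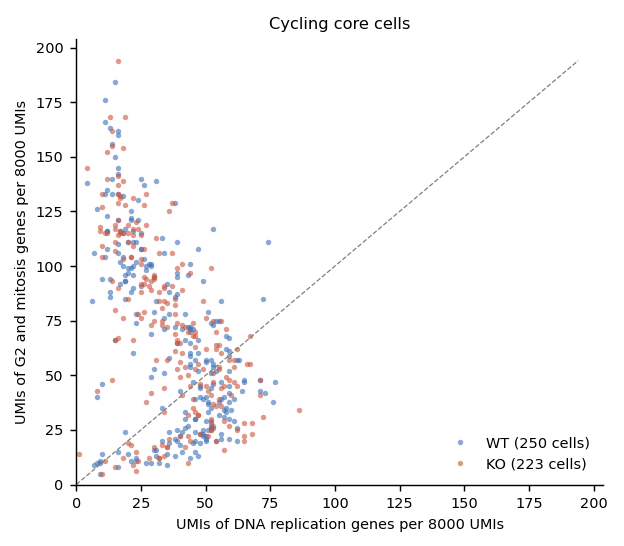
UMIs of the DNA replication genes (x axis) and of the G2 and mitosis genes (y axis) in each cycling core cell thinned to 8000 UMIs, 250 WT and 223 KO cells, with the dashed line marking equal sums. The clouds of both libraries overlap, and 60.0% of WT and 65.0% of KO cells hold more G2 and mitosis than replication UMIs.

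Which stem cell genes persisted during cycling was asked by comparing the members with the core cells of the same library that held no proliferation UMI, 56 in WT and 41 in KO. Most transcription factors of the stem cell program stayed within 1.5-fold, as most genes did, but nearly all lay slightly lower in cycling cells. Because the groups were split by proliferation UMIs, this comparison is a description, and depth differed with it: cycling cells held 1.68 times as many UMIs on average in WT and 1.84 times in KO. A level in CPM that is equal thus stands for more RNA molecules captured per cell. Of 4577 genes with at least 100 UMIs over both groups in each library, 373 (8.15%) were higher and 59 (1.29%) lower in both libraries, with a median log2 ratio of 0.07, and 3144 (68.7%) stayed within 1.5-fold in both. With cells thinned to 8000 UMIs before the rule, 134 of 2023 genes tested were higher, 105 of them among the 373, and 8 were lower, of which 1 was among the 59. Of the lower genes 1 was thus called again, on 11 KO cells without proliferation UMIs. Genes that fell below the UMI minimum after thinning could not be called, and their number among the 59 was not counted. With haemoglobin, mitochondrial and ribosomal protein genes left out of the total, the split was 320 higher to 115 lower.

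Of 27 stem cell transcription factors (Hlf and Mecom left out), 20 had enough UMIs and 15 of these (75%) stayed within 1.5-fold in both libraries, close to the 68.7% of all genes. None was higher in both and 1, Mycn, was lower in both. On the mean of the libraries 19 of the 20 lay below 0, against 42.0% of all genes, and the median over the list was -0.26, or 0.01 with cells thinned to 8000 UMIs. Meis1, a homeobox partner of the Hoxa proteins (ENSMUSG00000020160, chr11:18879817-19018985, minus strand), stood at 90.9 CPM in cycling and 98.4 CPM in the other core cells of WT, and at 87.7 and 115 CPM in KO. In UMIs per cell Meis1 was higher in cycling cells, 1.72 against 1.11 in WT and 1.23 against 0.88 in KO. Erg, an ETS factor required for stem cell maintenance, had log2 ratios of -0.11 (-0.59 to 0.40) in WT and -0.15 (-0.79 to 0.55) in KO. Bcl11a, a factor of lymphoid and stem cells that also silences embryonic globin, had ratios of -0.03 (-0.29 to 0.25) and -0.12 (-0.49 to 0.27). The ratios of Myb were -0.04 and 0.16, of Hhex -0.19 and -0.08, of Gata2 -0.19 and -0.08, and of Fli1 -0.07 and -0.30. For all of these the interval held 0 in both libraries, and none passed 1.5-fold.

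Mycn, the MYC family gene that fetal and adult stem cells express, was the only one of the 20 lower by over 1.5-fold in both libraries. It stood at 79.6 CPM in cycling cells against 140 CPM in the other core cells of WT, and at 83.5 against 134 CPM in KO, log2 ratios of -0.81 (-1.15 to -0.46) and -0.68 (-1.16 to -0.18). Per cell, Mycn was counted 1.5 times against 1.57 in WT and 1.17 against 1.02 in KO, so the captured amount per cell was nearly equal and its share of the larger RNA pool was lower. At 8000 UMIs per cell the mean Mycn ratio was -0.50, short of 1.5-fold. Other factors were lower by less or in 1 library. Ikzf2 had ratios of -0.56 (-0.84 to -0.27) in WT and -0.48 (-0.88 to -0.06) in KO, and Hoxa9 of -0.46 and -0.45. Nkx2-3 was at -0.02 in WT and -0.79 (-1.35 to -0.18) in KO. The 2 libraries differed in direction for Runx1 (-0.56 in WT, 0.27 in KO) and Msi2 (-0.37 and 0.33), where the KO group without proliferation UMIs was only 41 cells.

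**Figure D2:**
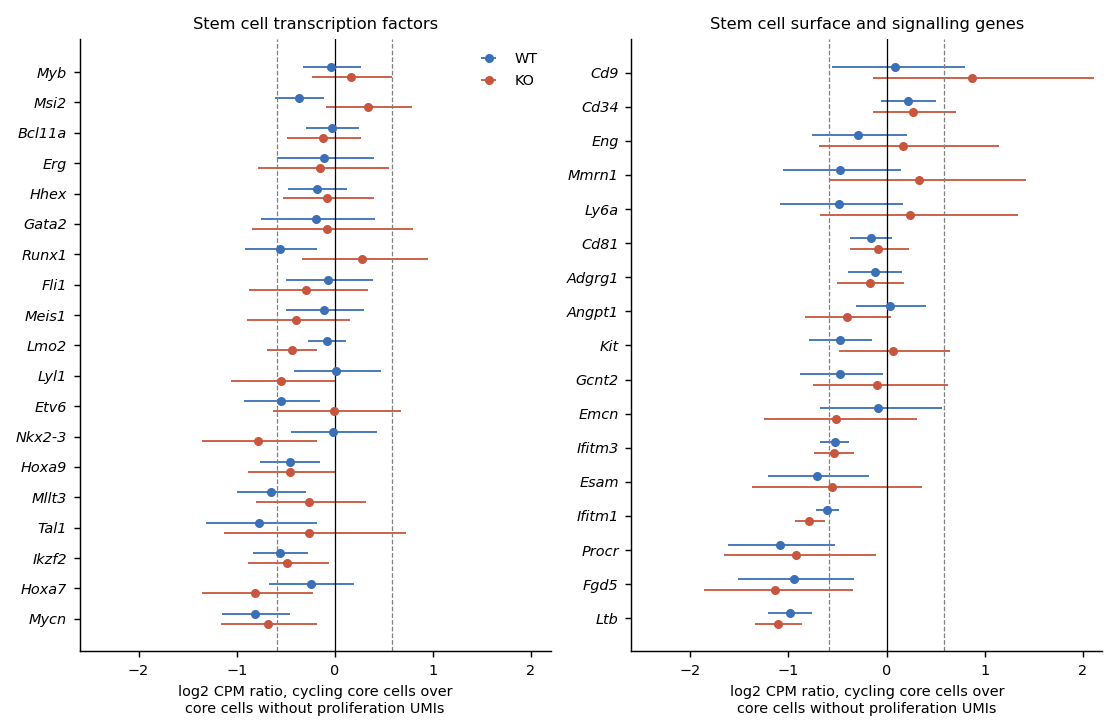
Log2 ratio of CPM in cycling core cells over core cells without proliferation UMIs (x axis) for the stem cell transcription factors and the surface and signalling genes reported here (y axis), WT in blue and KO in red, with exact 95% counting intervals as bars and dashed lines at 1.5-fold. Most transcription factors lie between the dashed lines in both libraries, and Mycn, Procr, Fgd5, Ltb and Ifitm1 lie left of them.

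Among the surface and signalling genes, some were lower in cycling cells by over 1.5-fold and others were not. Of 18 tested, 12 (66.7%, against 68.7% of all genes) stayed within 1.5-fold in both libraries and 4 were lower in both (Procr, Fgd5, Ltb and Ifitm1). On the mean of the libraries 16 of the 18 lay below 0, against 42.0% of all genes, with a list median of -0.22. Procr (ENSMUSG00000027611, chr2:155751117-155755471, plus strand) encodes the protein C receptor EPCR, a marker of long-term repopulating cells. It had 136 UMIs (28.4 CPM) in cycling and 38 UMIs (60.3 CPM) in the other core cells of WT, and 101 UMIs (30.3 CPM) and 18 UMIs (57.5 CPM) in KO. The log2 ratios were -1.09 (-1.62 to -0.53) and -0.92 (-1.66 to -0.11). At 8000 UMIs per cell, 22.8% (17.8 to 28.5) of WT members held a Procr UMI against 40.4% (27.0 to 54.9) of the 52 WT core cells without proliferation UMIs, and 0.447% of cycling erythroid cells.

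Fgd5, a guanine nucleotide exchange factor used as a stem cell reporter, had ratios of -0.94 (-1.51 to -0.33) and -1.14 (-1.86 to -0.34), and at 8000 UMIs per cell a mean ratio of -0.43. Ltb, which encodes the membrane-anchored cytokine lymphotoxin beta (chr17:35194439-35196320, plus strand), stood at 166 CPM in cycling against 330 CPM in the other core cells of WT, and at 266 against 572 CPM in KO. Its ratios were -0.99 (-1.21 to -0.76) and -1.10 (-1.34 to -0.86), and its mean ratio at 8000 UMIs per cell was -0.45. Ifitm1, an interferon-induced membrane protein gene, had ratios of -0.61 and -0.79. Pdzk1ip1, another gene of immature stem cells, had too few UMIs in KO for the count, with ratios of -1.26 and -1.57.

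Cd34, the sialomucin of stem and progenitor cells, was not lower in cycling cells. Its ratios were 0.22 (-0.06 to 0.50) and 0.27 (-0.13 to 0.71), and it was counted 4.11 times per cycling cell against 2.11 in WT and 2.82 against 1.27 in KO. Adgrg1 (GPR56), an adhesion receptor of stem cells, had ratios of -0.12 and -0.17 and Cd81, a tetraspanin gene, of -0.16 and -0.08. At 8000 UMIs per cell, Cd34 was seen in 79.2% of WT and 76.7% of KO members, against 5.10% and 7.41% of cycling erythroid cells.

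The same order appeared when core cells were split by the size of the proliferation sum into 0, 1, 2 to 9, 10 to 29 and at least 30 UMIs. It is a finer cut of the same cells and not a second observation. Median depth rose over the steps, from 10549 to 21552 UMIs in WT and from 6955 to 17024 in KO, and its part in the levels was not tested. These steps held 56, 39, 70, 95 and 89 cells in WT and 41, 31, 75, 113 and 49 cells in KO. Procr went from 60.3 CPM at a sum of 0 to 39.5, 29.7 and 21.8 CPM in the 3 steps of members in WT, and from 57.5 to 48.5, 24.0 and 25 CPM in KO. Ltb went from 330 to 247, 139 and 150 CPM in WT and from 572 to 361, 252 and 206 CPM in KO. Meis1 stayed between 88.4 and 101 CPM across the steps in WT and between 82.2 and 115 CPM in KO. The DNA replication genes summed highest in WT at 10 to 29 UMIs (5716 CPM, against 3614 CPM at 30 or more), while the sum of the G2 and mitosis genes outside the rule at 30 or more was 12366 CPM in the WT and 12486 in the KO cells.

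**Figure D3:**
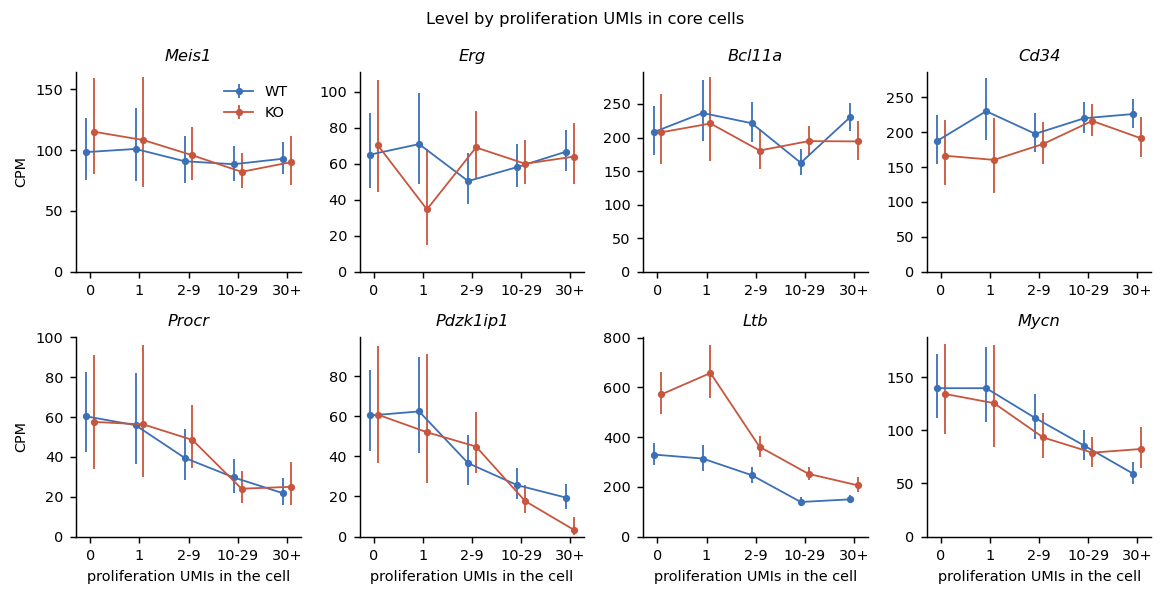
CPM with exact 95% Poisson intervals (y axes) of 8 genes in core cells grouped by their proliferation sum (x axis: 0, 1, 2 to 9, 10 to 29, at least 30 UMIs), WT in blue and KO in red. Meis1, Erg, Bcl11a and Cd34 are nearly level, whereas Procr, Pdzk1ip1, Ltb and Mycn are lower at high sums in both libraries, Procr from 60.3 to 21.8 CPM in WT.

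Of 6 fetal timing genes tested, 3 (50%, against 68.7% of all genes) stayed within 1.5-fold in both libraries and none passed it in both, with a median of 0.28. Hmga2, the fetal chromatin protein kept on by LIN28B, had ratios of -0.19 and -0.20 and was seen in 92.0% of WT and 93.3% of KO members at 8000 UMIs per cell, against 9.48% and 12.0% of cycling erythroid cells. Of the quiescence and dormancy list, 5 genes were tested and 1, Zfp36, an mRNA decay factor that is also an immediate early gene, was lower in both libraries (-0.71 and -0.76). Cdkn1c, the imprinted cell cycle inhibitor p57, had ratios of -0.68 in WT and 0.28 in KO, and at 8000 UMIs per cell was still seen in 56.8% of WT and 53.8% of KO members, against 3.85% and 5.24% of cycling erythroid cells. Of 10 immediate early genes 2 were lower in both libraries (Zfp36 and Klf2), against 1.29% of all genes, with a median of -0.54.

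The cycle genes differed as the selection required. All 46 tested G2 and mitosis genes outside the rule were higher in both libraries, with a median of 3.18. Many had almost no UMIs in the other core cells, so the size of the largest ratios is loosely set. Nusap1, a spindle protein gene, had 889 WT and 635 KO UMIs in cycling cells against 2 and 1, with ratios of 5.87 (4.01 to 8.91) and 5.90 (3.42 to 11.2). Ube2c, a mitotic ubiquitin-conjugating enzyme gene with 15 and 11 UMIs in the other core cells, had ratios of 4.26 (3.53 to 5.10) and 3.86 (3.02 to 4.87). Of 34 replication genes 27 were higher, with a median of 1.13. Of 13 G1 regulators 3 were higher: E2f1 (1.21 and 1.23), Ccne1 (1.12 and 1.62) and Rbl1, which encodes the pocket protein p107 (1.01 and 1.01). Of 22 ribosome biogenesis genes 3 were higher (Nop2, Nolc1 and Odc1), with a median of 0.37, and none of 12 glycolysis genes was, with a median of 0.22. Among all genes 8.15% were higher and 1.29% lower in both libraries, so small counts in such short lists are not read as a result. None of 4 retinoic acid genes, 7 imprinted growth genes and 5 dormancy genes named by the study passed 1.5-fold in both libraries.

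The members were next set beside the other cycling cells, those with at least 2 proliferation UMIs that passed the Klf1 and Mpo limits but held neither Hlf nor Mecom (227 WT and 512 KO cells). Of 7478 genes, 618 (8.26%) were higher in the members in both libraries and 435 (5.82%) lower, with a median of 0.08. Without the cells of either group that held over 1% of UMIs in 1 marker list, 446 were higher and 265 lower. Of 50 G2 and mitosis genes none passed 1.5-fold in both libraries, with a median of 0.016, and of 35 replication genes 1 did (Pole), with a median of 0.23. Both groups had to pass the same limit on the proliferation sum, so near-equal cycle genes follow in part from the selection and are not read as a result.

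The stem cell genes were higher in the members. Of 22 stem cell transcription factors tested, 15 were higher, 2 were lower, Gfi1b among them, and the median was 1.07. The homeobox gene Nkx2-3 was 3.70 higher on the log2 scale in WT and 3.68 in KO, and Ikzf2, which encodes the zinc finger factor Helios, 2.25 and 2.76. Of 23 surface genes 13 were higher, among them Procr, Cd34, Kit and Ltb (2.84 and 2.44), and 2 were lower (Cd9 and Vwf). The endothelial-type adhesion receptor gene Adgrl4 was 2.84 and 2.77 higher. In UMIs summed over cells, most markers of other cell types were lower in the members, all 10 hepatocyte markers and all 8 tested megakaryocyte markers included. Pf4 (platelet factor 4) was at -5.56 and -4.44, so the other cycling cells held other types as well. The median cell differed from these sums. Erythroid, hepatocyte, and monocyte and dendritic markers had higher medians in the members, the last list 110 and 104 CPM in WT and KO against 58.1 and 55.6. Megakaryocyte markers had lower medians, 51.0 and 54.6 CPM against 71.8 and 82.8. By the summed UMIs the neutrophil list was the exception, with 1 of 5 tested markers higher and none lower in the members in both libraries. Its median was 2.62 in WT and -3.96 in KO, so the libraries went opposite ways, and the median of 0.37 on their mean is not read. Hlf and Mecom chose both groups, so these ratios are a description.

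Between the genotypes, the stem cell program of the cycling core cells was close to equal, and few genes outside cell type markers differed by over 1.5-fold. Of 7063 genes with at least 100 UMIs, 90 (1.27%) were higher and 80 (1.13%) lower in KO, with a median log2 ratio of 0.02. At these shares a short list would hold few genes past 1.5-fold or none. A count of none in the lists below is therefore near the share of all genes and is not read as a result about a list. Without the 4 WT and 8 KO members that held over 1% of UMIs in 1 marker list, the counts were 64 higher and 76 lower of 6935 genes. In female cells alone they were 65 and 88. With cells thinned to 8000 UMIs before the rule, 54 of 3539 genes were higher and 54 lower, of which 11 and 13 were among those first counted.

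None of the 24 tested stem cell transcription factors passed 1.5-fold, where 1.27% of all genes were higher and 1.13% lower, and the list median was -0.01. Meis1 had 436 UMIs (90.9 CPM) in WT and 292 UMIs (87.7 CPM) in KO, a ratio of -0.05 (-0.27 to 0.17). Erg had a ratio of 0.07 (-0.19 to 0.33), Gata2 of 0.12 (-0.19 to 0.43), Hoxa9 of -0.10 (-0.29 to 0.09) and Mycn of 0.07 (-0.16 to 0.30). The interval lay wholly on 1 side of 0 for 4 of the 24 (16.7%), against 12.5% of all genes tested. Nkx2-3, a homeobox gene known for its part in spleen vasculature, was furthest down, with 382 UMIs (79.6 CPM) in WT and 185 UMIs (55.6 CPM) in KO, a ratio of -0.52 (-0.78 to -0.26). Of members thinned to 8000 UMIs, 48.0% (41.7 to 54.4) of those from WT held it and 32.3% (26.2 to 38.9) of those from KO, against 1.07% and 0.684% of cycling erythroid cells. Hoxa7 (-0.28) and Lmo2 (-0.15) were also below 0, and Myb was above it (0.23, 0.08 to 0.38). Hlf and Mecom, which chose the cells, had ratios of -0.17 and 0.02.

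Of the 6 fetal timing genes none passed 1.5-fold, with a median of 0.16. Lin28b, the RNA-binding protein gene of fetal blood formation, had a ratio of 0.44 (0.05 to 0.82) on 119 WT and 112 KO UMIs, and Hmga2 a ratio of -0.16 (-0.26 to -0.05). Of 9 imprinted growth genes 1 passed, the maternally expressed noncoding RNA Meg3 (1.09), whose ratio turned negative in 5 of the alternatives, without doublets and in female cells among them (-0.21 and -0.70).

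Of 22 surface and signalling genes 1 was higher in KO and none was lower, with a median of 0.04. That gene was Ltb, a known target of NF-κB. It had 798 UMIs (166 CPM) in WT and 887 UMIs (266 CPM) in KO, a ratio of 0.68 (0.54 to 0.82), and 0.54 to 0.78 over 15 alternatives. Ltb was held by 62.4% (56.1 to 68.4) of the thinned WT members and 75.8% (69.6 to 81.2) of the thinned KO members, against 2.33% and 3.08% of cycling erythroid cells. Adgrg1 had a smaller ratio of 0.26 (0.12 to 0.40), and 0.21 to 0.30 over the alternatives. Procr (0.10, -0.29 to 0.48), Cd34 (-0.12, -0.26 to 0.03), Kit (-0.13, -0.33 to 0.07) and Fgd5 (0.06, -0.34 to 0.46) had intervals that held 0, and the endoglin gene Eng was at -0.37 (-0.68 to -0.07).

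Of 17 tested NF-κB genes Ltb was the only one higher by over 1.5-fold and Nfkbia the only one lower, with a median of 0.11. The noncanonical subunits fell short of the UMI minimum. Nfkb2 had 32 UMIs in WT and 45 in KO, a ratio of 1.02 (0.33 to 1.72), and Relb 21 and 38 UMIs, a ratio of 1.38 (0.58 to 2.23). Summed after their values were seen, the pair had 11.1 CPM against 24.9 in KO (1.17, 0.66 to 1.70). The canonical subunit genes did not share this: Nfkb1 was at -0.05, Rel at -0.10 and Rela at -0.34 (-0.77 to 0.08). The feedback inhibitor gene Tnfaip3 had only 8 and 10 UMIs, so a difference was not detectable at this depth.

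**Figure D4:**
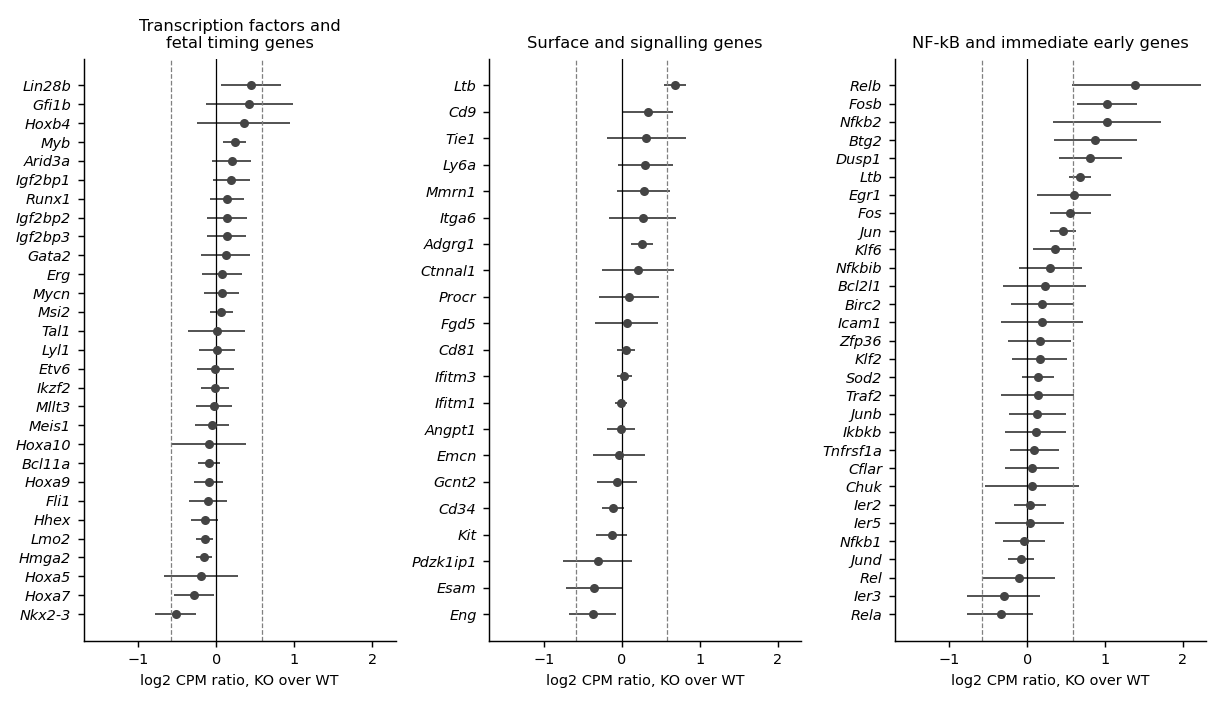
Log2 KO/WT ratio of CPM in cycling core cells (x axis) for the reported stem cell transcription factors and fetal timing genes, surface and signalling genes, and NF-κB and immediate early genes (y axes), with exact 95% counting intervals as bars and dashed lines at 1.5-fold. No transcription factor shown lies outside the dashed lines, and Ltb, Nfkb2, Relb and Fosb lie to the right of them.

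Immediate early genes, which are switched on within minutes of a stimulus and also by tissue dissociation, had the highest list median outside the cell type markers. Of 13 tested, 4 were higher in KO and none was lower, against 1.27% higher and 1.13% lower among all genes, with a median of 0.36. Fosb had 98 UMIs in WT and 138 in KO (20.4 and 41.4 CPM), a ratio of 1.02 (0.64 to 1.41). The others were Btg2 (0.88, 0.34 to 1.41), Dusp1 (0.81, 0.41 to 1.22) and Egr1 (0.60, 0.13 to 1.08), and at 8000 UMIs per cell their ratios were 0.42, 0.39 and 0.18. Fos (0.56, 0.30 to 0.81) and Jun (0.46, 0.30 to 0.63) were higher by less than 1.5-fold. In cycling erythroid cells the KO/WT ratio was 0.54 (0.35 to 0.73) for Fosb, 0.27 (0.08 to 0.46) for Dusp1, 0.13 (0.02 to 0.25) for Btg2 and 0.05 (-0.29 to 0.38) for Egr1. In other cycling cells it was 0.61 for Fosb, 0.07 for Dusp1, 0.03 for Btg2 and -0.38 (-0.63 to -0.12) for Egr1.

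The quiescence, retinoic acid and cycle genes gave few differences. Of 9 quiescence and dormancy genes Btg2 alone passed, with a median of 0.09, and Cdkn1c had a ratio of 0.09 (-0.10 to 0.29). All 5 tested retinoic acid genes were below 0 by less than 1.5-fold, with a median of -0.12, against 45.8% of all genes below 0. The 5 receptor genes Rara, Rarb, Rarg, Rxra and Rxrb, summed, had 324 UMIs (67.5 CPM) in WT and 221 UMIs (66.4 CPM) in KO, a ratio of -0.02 (-0.28 to 0.23). Most of these UMIs, 234 in WT and 149 in KO, were of Rxrb, so the sum says little of the others. Rara alone had a ratio of 0.40 (-0.21 to 1.02) on 49 and 45 UMIs. With 7 and 3 UMIs of Rarb and 9 and 4 of Rarg, a difference in these was not detectable at this depth. Among the 5 dormancy genes named by the study none passed, and since the list holds Cdk6 and Myc beside the cell cycle inhibitor gene Cdkn1c, its median is not read. Among the 4 tested AGM genes of the study none did, with a median of -0.01. The study named these dormancy and AGM genes from its bulk RNA sequencing of LT-HSCs, the dormancy genes out of a published list. They are thus not a neutral sample of genes. In that bulk RNA the study reported Myc and Cdk6 lower in KO, the other way from their ratios in these cycling cells given below.

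In the cycle machinery, none of 35 replication genes and none of 50 G2 and mitosis genes passed 1.5-fold, with medians of -0.10 and 0.06. Of the 35 replication genes 28 (80%) were below 0, as were 28% of the G2 and mitosis genes, against 45.8% of all genes tested. Of 15 G1 regulators Rbl1 alone was higher (0.60, 0.23 to 0.96). Cdk6, a G1 kinase gene of stem cell exit from quiescence, had 260 UMIs (54.2 CPM) in WT and 255 UMIs (76.6 CPM) in KO, a ratio of 0.50 (0.24 to 0.75), and 0.26 to 0.71 over the alternatives. The oncogene Myc had a ratio of 0.49 (0.15 to 0.83). None of 24 ribosome biogenesis genes and none of 13 glycolysis genes passed.

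By size alone, the differences were led by genes of other cell types. The 8 highest genes in KO with at least 200 UMIs were Ttr, Rbp4, Apoa2, Apoa1, Alb, Afp, Mt1 and Trf, mostly products of hepatocytes. For each of these 8 genes, 1 KO cell held most of the KO members' UMIs. It held 218 of 246 for Ttr, 319 of 357 for Apoa2, 530 of 641 for Alb and, as the smallest share, 344 of 584 for Mt1. The 8 lowest were Camp, S100a8, S100a9, Stfa1, Cstdc4, Cstdc5, Trbc2 and Hist1h2ad. Trbc2, Stfa1, Cstdc4, Cstdc5 and Hist1h2ad have near-identical copies, and reads shared with them may be lost or split. Of 499 WT Camp UMIs, 498 came from 1 cell, as did 1024 of 1035 Stfa1 UMIs. Without the members rich in such markers, a ranking made after these values were seen had Hmox1, the heme oxygenase gene (1.57, 1.16 to 2.00), Pf4 (1.17) and Fosb (1.05) at the top. Few cells again carried the first pair: the 146 KO Hmox1 UMIs were held by 19 cells, with 50 in 1 of them, and 243 of the 461 KO Pf4 UMIs by 1 cell. At the bottom stood Trbc2 (-1.55), the histone gene Hist1h2ad (-1.51), Lbp (-1.26), which encodes the lipopolysaccharide-binding protein, and Hist1h2ap (-1.11). Stmn1, the microtubule destabiliser stathmin, was in this ranking with the most UMIs (6896 in WT and 2479 in KO, -0.92, -0.99 to -0.85).

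To see which of these differences went beyond the cycling core cells, the KO/WT ratio was taken in 4 groups of cells. Stmn1 was lower in all of them, by -0.94 (-1.01 to -0.88) in the members, -1.07 in core cells without proliferation UMIs, -1.06 in other cycling cells and -0.90 in cycling erythroid cells. Lbp was lower in all 4 as well, from -1.29 in the members to -0.89 in other cycling cells. Ltb was higher in all 4: 0.68 in the members, 0.79 (0.50 to 1.09) in core cells without proliferation UMIs, 1.08 (0.78 to 1.39) in other cycling cells and 0.47 (0.20 to 0.75) in cycling erythroid cells. Since all 4 groups came from the same pair of libraries, they do not repeat the comparison.

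Other genes differed in direction or size between the groups. Trbc2, the constant segment gene of the T cell receptor beta chain, was at -1.56 (-1.96 to -1.18) in the members and -1.99 in core cells without proliferation UMIs, but at 0.25 (0.12 to 0.38) in other cycling cells and 0.37 in cycling erythroid cells. Its member ratio was 0.18 when cells were thinned before the rule. Cdk6 was at 0.50 in the members and at -0.62 (-1.75 to 0.40), -0.18 and 0.01 in the other 3 groups. Nkx2-3 was at -0.52 in the members, 0.24 (-0.46 to 0.92) in core cells without proliferation UMIs and -0.50 (-1.24 to 0.24) in other cycling cells. Nfkb2 and Relb, summed, were at 1.17 in the members and 1.16 (-0.29 to 2.64) in core cells without proliferation UMIs, and at 0.23 (-0.29 to 0.77) and 0.29 (0.02 to 0.56) in the other 2 groups. Whether the ratios differed between groups was not tested, as each group was 1 library per genotype.

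**Figure D5:**
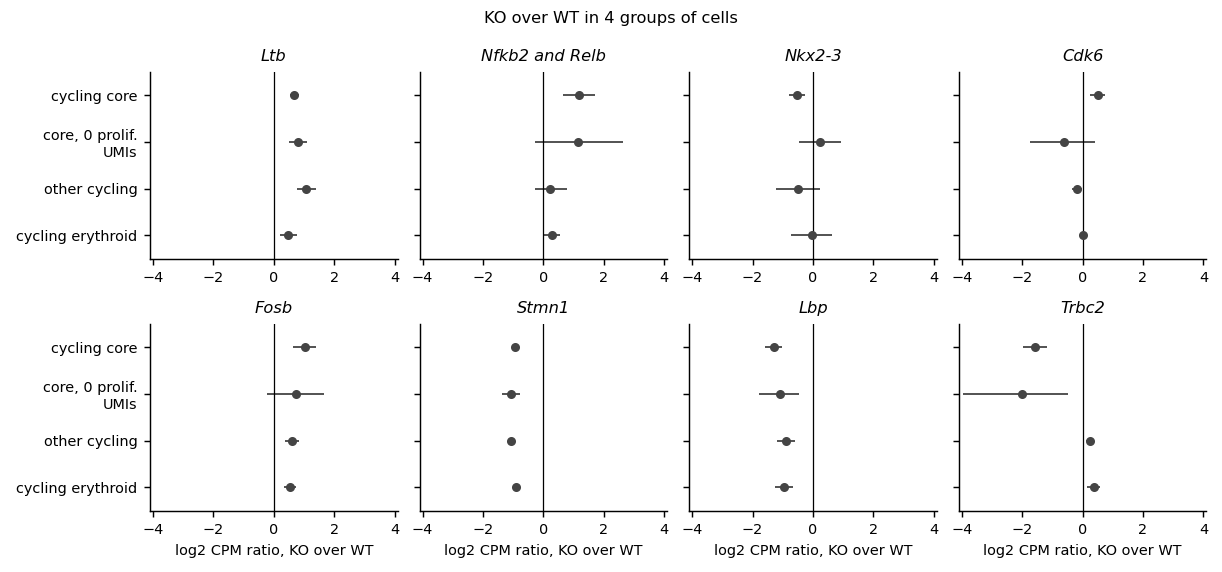
Log2 KO/WT ratio of CPM (x axis) of Ltb, Nfkb2 and Relb summed, Nkx2-3, Cdk6, Fosb, Stmn1, Lbp and Trbc2 in cycling core cells, core cells without proliferation UMIs, other cycling cells and cycling erythroid cells, with exact 95% counting intervals as bars. Stmn1 and Lbp lie below 0 and Ltb above 0 in all 4 groups, while Trbc2 lies below 0 in both groups of core cells and above 0 in the other groups.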

How the data were processed

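LSK cells of E14.5 CD1 fetal livers were profiled by 10x 3′ single-cell RNA sequencing, 1 WT and 1 KO library. The authors deposited unnormalized UMI counts of each gene in every called cell, made by Cell Ranger 6.0.0 on GRCm38 per the submitters' processing notes. Both count tables held 32285 genes. Reads that map to several genes are not counted by this tool's default, which lowers near-identical paralogs such as histone genes.

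Cells passed with 1000 or more genes seen and mitochondrial UMIs of no more than 20%, and members were found by the rule. Members, lists and rules for named genes were chosen with earlier results of these data known. UMIs were summed over the cells of each library and group and divided by the group's total (CPM). With 1 library per genotype no test was made. Ratios carry exact conditional 95% intervals, for genes with at least 100 UMIs, called past 1.5-fold; genes named by size needed 200 UMIs and were the 8 largest each way, and further genes came from 25 lists. The interval code was tested on simulated data. Cycling erythroid cells were those with the proliferation sum and at least 10 Klf1 UMIs. Doublets were called with Scrublet in scanpy 1.11.5. Positions were from GENCODE release 21 of GRCm38 (32158 of 32285 gene IDs matched). Python 3.11.15, numpy 2.4.6, scipy 1.17.1, pandas 2.3.3 and matplotlib 3.10.9 were used. A few members of the lists count in the totals but are not reported here by name. Alternatives covered cell filters, thinning, the limits of the rule, scaling and the gene minimum.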

Additional observations from a re-analysis of the deposited data

Results flagged for a closer look

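Meg3, the imprinted noncoding RNA, drew attention because its log2 ratio of cycling core cells over core cells without proliferation UMIs was -0.99 in WT and 0.99 in KO. It rested on 26 WT and 7 KO UMIs in the cells without proliferation UMIs. Among the KO cycling core cells, 1 cell held 89 of the 148 Meg3 UMIs, whereas the top WT cell held 8 of 100. The difference between the libraries was not tested.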

How the results depend on the processing

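With 1 library per genotype, no alternative measures the spread between embryos, and no replicate could be left out. No paired analysis was possible because WT and KO are 1 library each. Over 16 alternatives, of which 2 were chosen after seeing the data (without members rich in markers of another cell type, and without the top cell of each gene), 84 of 106 values for shares and counts stayed within their interval or within 1.5 times, and 22 did not. The difference in the share of members was -0.035 points with cells thinned to 8000 UMIs and -0.68 with only the WT library thinned, to the median depth of KO. The difference in the cycling share of core cells was 25.1 points when thinned and 11.4 with at least 2 UMIs of Hlf and of Mecom. The KO/WT count of higher genes was 54 when thinned, 234 at a minimum of 50 UMIs and 16 at 400, and of lower genes 203 and 15 at those minimums. Genes higher in cycling than in other core cells numbered 134 when thinned, 160 with at least 2 UMIs of Hlf and of Mecom and 108 at 400 UMIs. Lower genes numbered 8 when thinned (11 KO cells without proliferation UMIs were left), 11 with at least 2 UMIs of each, 115 without haemoglobin, mitochondrial and ribosomal genes, 89 under median-of-ratios scaling, 146 at 50 UMIs and 8 at 400. Against other cycling cells, 177 genes were higher at 400 UMIs, and 683, 149 and 265 were lower at 50 UMIs, at 400 UMIs and without cells rich in other markers. Fewer genes were tested at 400 UMIs and more at 50; for the other settings the cause was not tested.

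Single genes turned direction in 18 cases. KO/WT of Meg3 was -0.21 without doublets, -0.72 when thinned, -0.70 in female cells, -0.23 without cells rich in other markers and -0.10 without its top cell. Genes held by single WT cells turned positive: Cstdc5 at 0.14 and 1.52, S100a8 at 0.19 and 0.16, S100a9 at 1.56 and 1.69, and Stfa1 at 0.19, 0.096 and 0.064, and Trbc2 was 0.18 when thinned. Against other cycling cells, thinning turned Dhrs3 (0.036), Egr1 (0.17) and Fosb (0.24).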
